A study of Homo sapiens with 16 samples.

Results

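NDRG1, LRP1 and PAPSS2 are 3 of the 18227 genes measured in RNA sequencing of 2 human lung cancer lines. They were chosen by their measured response in A549 cells. In that line all 3 were higher in libraries labelled ZC3H12A knockout than in wild type under normal culture, and lower under a culture that enriches stem-like cells, called oncosphere culture here. The A549 knockout effects below are therefore descriptions and carry no test. Tests were kept to the second line, H2023, whose libraries had no part in the choice.

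NDRG1 encodes a cytosolic protein of the alpha/beta hydrolase fold that responds to stress and differentiation, and its mRNA is a well-known target of hypoxia-inducible factors, of iron depletion and of repression by MYC proteins. LRP1 encodes a very large endocytic receptor of the LDL receptor family, which clears proteases, protease-inhibitor complexes, matrix proteins and apolipoprotein particles from the cell surface. PAPSS2 encodes a bifunctional enzyme that turns sulfate and ATP into PAPS, the sulfate donor of every sulfotransferase. Its paralog PAPSS1 does the same reaction. ZC3H12A encodes Regnase-1, an RNase whose targets include mRNAs of inflammatory mediators.

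A549 and H2023 are established lines of human non-small cell lung cancer. Each was measured as wild type and as a ZC3H12A knockout, after 3 days in normal culture or 7 days in oncosphere (stem-cell-enriched) culture, so culture type and time change together. The 8 groups hold 2 libraries each. The titles name a single knockout clone per line, so the edit cannot be told apart from other properties of that clone. Nothing in the labels says that the replicates are separate cultures, and p-values then measure only the spread between these libraries. In bulk RNA a change in the share of cells that express a gene and a change per cell cannot be told apart.

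The expression values are the authors' TPM, which are scaled for gene length and within each library, so levels can be compared between genes. TPM hold no record of depth. The mean normalized counts in the authors' deposited tables were 2307 to 3084 for NDRG1, 2106 to 8894 for LRP1 and 893.2 to 2342 for PAPSS2, so none of the 3 rests on few reads. ZC3H12A mRNA itself was lower under the knockout label in A549 normal culture only. It had 30.72 and 34.88 TPM there in wild type and 16.9 and 19.93 TPM in libraries labelled knockout. In A549 oncosphere culture the values were 48.48 and 49.17 against 60.17 and 55.6 TPM, in H2023 normal culture 26.78 and 29.85 against 41.48 and 41.54 TPM, and in H2023 oncosphere culture 32.54 and 26.41 against 94.61 and 69.18 TPM. The mRNA level alone cannot show whether the protein was lost, so genotypes are named by label. Of 16 marker genes listed for cell type and line, 9 had values here. All 5 epithelial markers were lower under the knockout label in A549 normal culture, KRT8 with means of 3597 and 1012 TPM, KRT18 with 3872 and 954.1 TPM, CDH1 with 43.39 and 19.16 TPM, KRT19 with 7.22 and 0.48 TPM and EPCAM with 1.61 and 0.65 TPM. In A549 oncosphere culture KRT19 (74.03 and 4.605 TPM) and EPCAM (8.67 and 0.925 TPM) were lower under the label, CDH1 was higher (67.76 and 81.75 TPM), and KRT8 and KRT18 overlapped. The part of these shifts in the A549 values below was not tested. Of the markers of other cell types, CD14 reached 6.61 to 13.05 TPM in A549 normal and 26.79 to 47.61 TPM in A549 oncosphere culture, without a reversal by label, and COL1A1 reached at most 8.46 TPM, LUM 3.53 TPM and PECAM1 2.76 TPM. CDKN2A, whose homozygous deletion marks A549, was not analysed here.

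NDRG1 (ENSG00000104419) codes for protein and lies on chromosome 8 (- strand), from 133237171 to 133302022 in GRCh38 (GENCODE 29). Its principal transcript has 16 exons and encodes 394 residues. In A549 normal culture it had 18.65 and 27.52 TPM in wild type and 134.0 and 148.49 TPM in the knockout-labelled libraries. In A549 oncosphere culture it had 79.48 and 177.85 TPM in wild type and 14.61 and 13.3 TPM in the knockout-labelled libraries. The genotypes did not overlap in either culture, and their order was opposite.

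In mean TPM NDRG1 was 6.12-fold higher in the normal-culture libraries labelled knockout and 9.22-fold lower in the oncosphere ones. On the log2(TPM + 1) scale the difference from wild type was 2.59 with a standard error of 0.19 in normal culture, and -3.01 with a standard error of 0.37 in oncosphere culture. Seen by culture, wild-type A549 cells had 5.57-fold more NDRG1 in oncosphere than in normal culture, and the clone labelled knockout had 10.1-fold less. The level in the oncosphere wild type rests on replicates that differed 2.24-fold. Without replicate 1 of that group the oncosphere difference was -3.58, and without replicate 2 it was -2.43.

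The weight of NDRG1 within its family moved with its level. Its share of the summed TPM of NDRG1, NDRG2, NDRG3 and NDRG4 was 32.9% and 39.2% in wild-type A549 in normal culture, and 72.8% and 75.1% in the knockout-labelled libraries. In oncosphere culture the shares were 61.1% and 74.5% in wild type and 20.0% and 18.9% in the knockout-labelled libraries. None of the 3 relatives was called in the order of NDRG1. By limma, with adjustment over all genes, 0 of 3 passed the threshold in A549 normal culture (1 at an unadjusted p under 0.05, and 0 in the authors' deposited table), and NDRG4 alone rose in oncosphere culture, from 7.62 and 4.23 to 16.69 and 13.74 TPM (log2 fold change 1.27, adjusted p = 0.044). NDRG2 had 24.88 and 31.04 TPM in oncosphere wild type against 20.46 and 22.66 TPM, and NDRG3 stayed between 18.15 and 29.37 TPM in the A549 libraries.

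**Figure D1:**
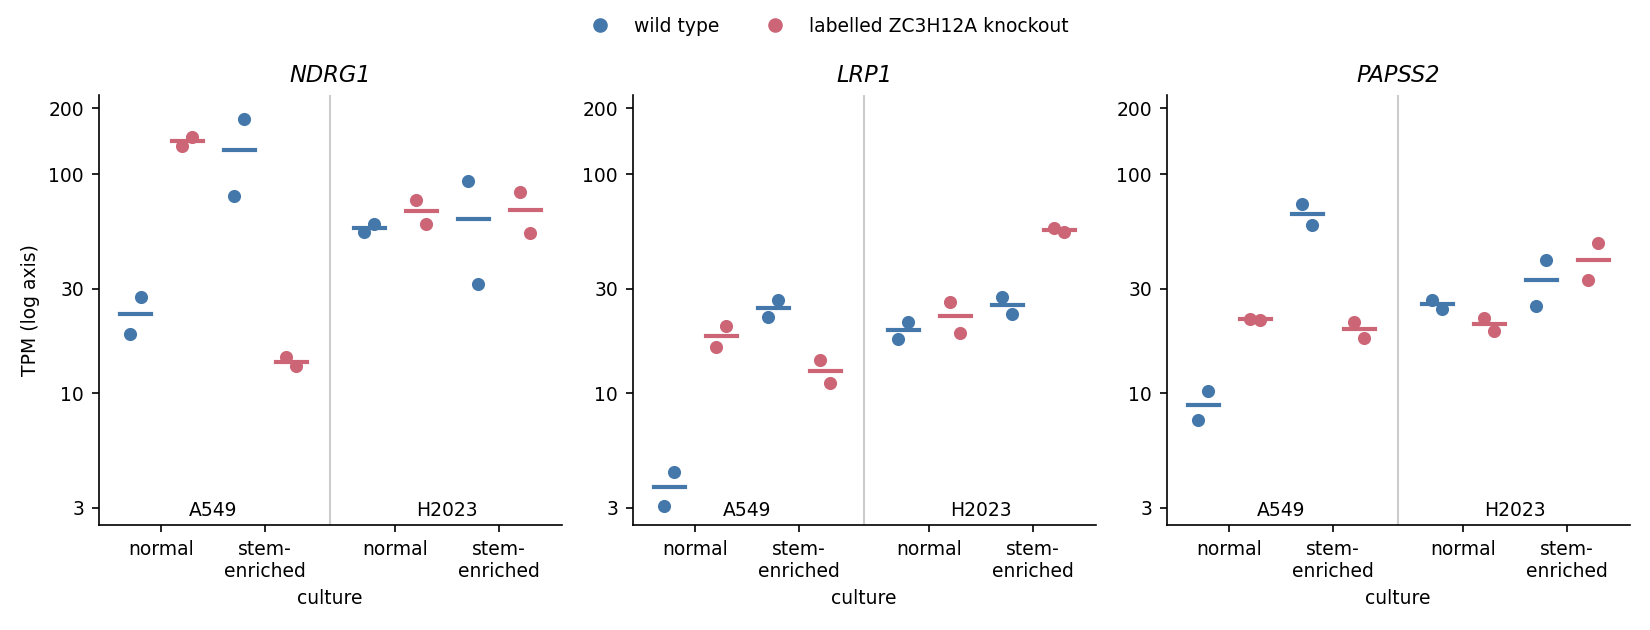
TPM of NDRG1, LRP1 and PAPSS2 on a log axis in all 16 libraries, by line and culture (oncosphere is stem-enriched on the axis), with wild type in blue and libraries labelled knockout in red; points are libraries and bars are means of 2. In A549 the red points lie above the blue ones in normal culture and below them in oncosphere culture for each gene, as for NDRG1 with means of 23.09 and 141.2 TPM and then 128.7 and 13.96 TPM.

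LRP1 (ENSG00000123384) codes for protein and lies on chromosome 12 (+ strand), from 57128493 to 57213351 in GRCh38. Its principal transcript has 89 exons in 14897 bases and encodes 4544 residues. In A549 normal culture LRP1 had 3.07 and 4.39 TPM in wild type and 16.34 and 20.38 TPM in the knockout-labelled libraries. In oncosphere culture it had 22.34 and 26.77 TPM in wild type and 14.22 and 11.15 TPM in the knockout-labelled libraries. The genotypes were again apart in both cultures and in opposite order.

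The difference in mean LRP1 was 4.92-fold upward in normal culture and 1.93-fold downward in oncosphere culture, so the reversal was lopsided. On the log2(TPM + 1) scale it was 2.04 (SE 0.22) and -0.90 (SE 0.18). Wild-type A549 cells had 6.58-fold more LRP1 in oncosphere than in normal culture. The libraries labelled knockout had means of 18.36 TPM in normal and 12.69 TPM in oncosphere culture, which did not overlap, and both lay between the 2 wild-type levels.

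The start of LRP1 overlaps that of STAT6 on the opposite strand, and the annotated genes share 3647 bases. Libraries were stranded per the labels' protocols, but whether counting used strand is not given in the sources used here, so reads of the shared stretch cannot be assigned with certainty. STAT6, a transcription factor of interleukin-4 signalling, had 42.69 and 51.71 TPM in wild-type A549 in normal culture and 69.21 and 80.55 TPM in the knockout-labelled libraries. In oncosphere culture it had 89.83 and 82.11 against 93.3 and 82.06 TPM, with no reversal.

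LRP1 was the only member of the 3 with an entry in the RefSeq promoter table. The 250 bases before its start (GRCh38.p14, chr12:57128233-57128482, + strand) are shown because motifs were searched in them, with matches to the searched motifs in capitals.
LRP1: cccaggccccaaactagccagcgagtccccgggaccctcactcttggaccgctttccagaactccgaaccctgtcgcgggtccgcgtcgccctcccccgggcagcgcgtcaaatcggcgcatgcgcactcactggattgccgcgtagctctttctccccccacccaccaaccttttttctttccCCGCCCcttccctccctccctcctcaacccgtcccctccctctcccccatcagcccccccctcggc

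This LRP1 window is 67.6% G and C, against a median of 58% over the 35116 promoters of the table, and holds 20 CpG dinucleotides and pyrimidine-rich runs near the start. Searched on both strands, it held 1 GC box (GGGCGG), starting at position -66, a match found in 42.6% of the promoters. It held no match to ACGTG, the core of the hypoxia response element (18.5% of promoters), to CACGTG, the E-box, whose letters include that core (6.3%), or to TGANTCA, the AP-1 site (6.6%). These counts say only which letters stand in the window.

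PAPSS2 (ENSG00000198682) codes for protein and lies on chromosome 10 (+ strand), from 87659613 to 87747705 in GRCh38. Its principal transcript has 12 exons and encodes 614 residues. In A549 normal culture PAPSS2 had 7.52 and 10.21 TPM in wild type and 21.94 and 21.68 TPM in the knockout-labelled libraries. In oncosphere culture it had 72.94 and 58.65 TPM in wild type and 21.21 and 17.95 TPM in the knockout-labelled libraries. The clone labelled knockout thus held nearly the same level in both cultures, and the wild-type levels lay on either side of it.

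Mean PAPSS2 was 2.46-fold higher in the knockout-labelled libraries in normal culture and 3.36-fold lower in oncosphere culture. On the log2(TPM + 1) scale the differences were 1.22 (SE 0.18) and -1.69 (SE 0.16). Between cultures it differed 7.42-fold in wild-type A549, and 1.11-fold in the clone labelled knockout.

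The balance of the 2 PAPS synthases moved with it. PAPSS2 made up 23.9% and 28.9% of their summed TPM in wild-type A549 in normal culture and 78.9% and 73.4% in oncosphere culture. In the knockout-labelled libraries the share was 41.9% and 45.2% in normal and 43.8% and 43.0% in oncosphere culture. PAPSS1 had 23.98 and 25.17 TPM in wild type from normal culture against 30.45 and 26.31 TPM, and 19.56 and 21.26 against 27.25 and 23.78 TPM in oncosphere culture. Its differences were not past the limma threshold (adjusted p = 0.328 and 0.195).

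Reversal of this kind was uncommon in A549. The authors' deposited tables give an adjusted p-value in both A549 cultures for 16157 genes. Of these, 90 (0.557%) were called higher under the knockout label in normal and lower in oncosphere culture, and 73 the other way. By limma 17 of 18227 genes (0.0933%) were called in the members' order and 9 in the other. The members belong to these counts by the way they were chosen. Among the 90, ranked by the difference of the log2 fold changes of the authors' deposited tables, NDRG1 was number 4 (-6.10), LRP1 number 20 (-3.16) and PAPSS2 number 23 (-3.09).

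The 5 other genes with the largest such differences were CA9, CREB3L1, PPFIA4, TCAF2 and SAMD9L. CA9, a cell-surface carbonic anhydrase and a classic hypoxia target, stood in normal culture at 3.11 and 4.87 TPM (wild type) and at 29.59 and 57.45 TPM (knockout label) while oncosphere culture had 82.85 and 76.98 TPM in wild type and 3.49 and 1.03 TPM under the label. CREB3L1, a membrane-bound transcription factor of the secretory pathway, had 11.32 and 6.97 TPM in oncosphere wild type and stayed at or below 1.2 TPM in the other A549 groups. SAMD9L, an interferon-induced gene, had 13.51 and 6.08 TPM in oncosphere wild type and 1.71 and 0.78 TPM under the label. In normal culture its low values of 0.68 and 0.32 TPM (wild type) and 0.68 and 0.87 TPM (knockout label) met at 0.68 TPM. PPFIA4 reached at most 6.49 TPM and TCAF2 at most 0.69 TPM.

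**Figure D2:**
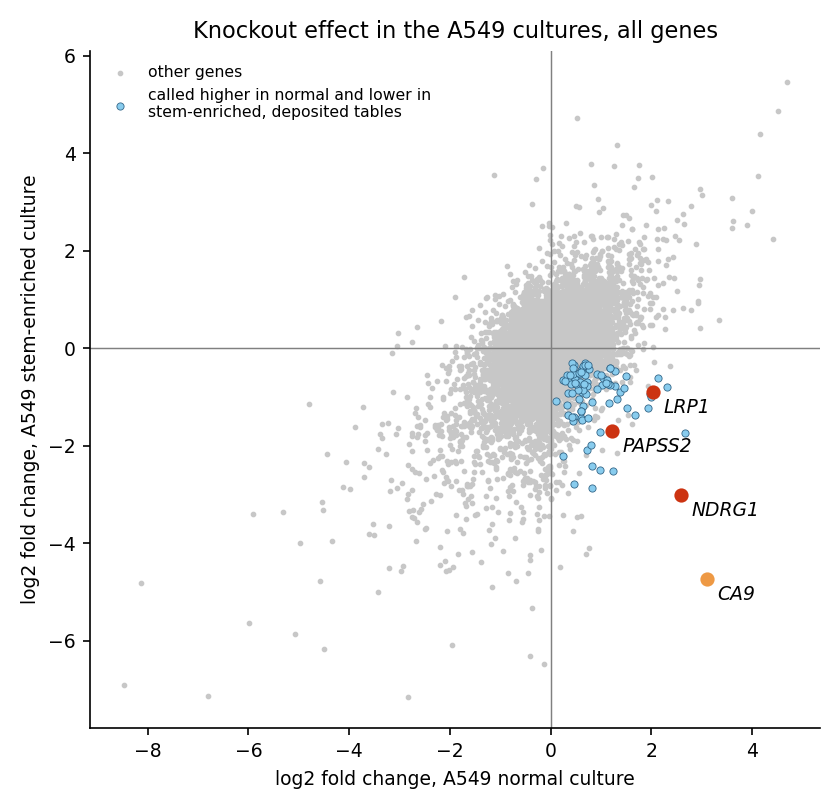
Limma log2 fold change on the log2(TPM + 1) scale of libraries labelled knockout over wild type for 18227 genes in A549 normal culture (x axis) and oncosphere culture (y axis), with the 90 genes that the authors' deposited tables call higher in the former and lower in the latter in blue. The 3 chosen genes, in red, lie in the lower right by the way they were chosen, LRP1 at 2.04 and -0.90 and NDRG1 at 2.59 and -3.01, with CA9 (orange) farther out at 3.11 and -4.74.

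H2023 was the line in which the knockout effect could be tested. NDRG1 had 54.39 and 59.41 TPM in wild type and 76.59 and 59.33 TPM in the knockout-labelled libraries in normal culture. In oncosphere culture it had 92.61 and 31.67 against 82.93 and 54.02 TPM. The genotypes overlapped in both cultures. The log2 differences were 0.24 (95% interval -0.17 to 0.66, limma adjusted p = 0.456) and 0.30 (-1.35 to 1.95, adjusted p = 0.841). The second effect took the opposite sign without wild-type replicate 2 (-0.46), without knockout-labelled replicate 1 (-0.007) and in the authors' deposited table (-0.12).

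LRP1 in H2023 normal culture had 17.74 and 21.06 TPM in wild type and 26.1 and 18.76 TPM in the knockout-labelled libraries, an overlap, with a log2 difference of 0.19 (95% interval -0.37 to 0.75, limma adjusted p = 0.66). In oncosphere culture it had 27.55 and 23.07 TPM in wild type and 56.59 and 54.32 TPM in the knockout-labelled libraries. These did not overlap, and the mean was 2.19-fold higher under the knockout label, the direction opposite to A549 in that culture. The log2 difference was 1.11 (SE 0.13, interval 0.75 to 1.46). Its call depended on the test. Limma over the 4 libraries gave an adjusted p of 0.208 (0.0743 to 0.574 under the other limma alternatives on 3 or 4 libraries), limma over the 8 H2023 libraries gave 0.0473 with 1.54% of genes called, and the authors' deposited table gives 1.00 (SE 0.18) with an adjusted p of 2.79e-06 and calls 5.07% of genes. STAT6 had 88.98 and 76.14 against 112.57 and 107.15 TPM there (adjusted p = 0.291 in the authors' deposited table).

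PAPSS2 in H2023 normal culture had 26.66 and 24.34 TPM in wild type and 22.03 and 19.33 TPM in the knockout-labelled libraries, which were both lower. The log2 difference of -0.29 (interval -0.61 to 0.03) was not past the threshold by limma (adjusted p = 0.305) or in the authors' deposited table (adjusted p = 0.179). In oncosphere culture the values were 25.05 and 40.54 against 32.81 and 48.48 TPM, which overlap (0.31, interval -0.59 to 1.22, limma adjusted p = 0.673). Within each replicate number the knockout-labelled value was the higher one, and limma with a replicate block gave an adjusted p of 0.184.

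The number of calls in H2023 depended on the tool. Limma called 0.0% of genes in H2023 normal and 0.0% in oncosphere culture, where the smallest adjusted p of any gene was 0.102 and 0.165 and 3314 and 2828 genes had an unadjusted p under 0.05, and the authors' deposited tables called 10.8% and 5.07%. Of the 3 genes, the authors' deposited tables called 0 in normal culture and LRP1 in oncosphere culture.

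Whether the knockout effect differed between the H2023 cultures was tested with an interaction term over the 8 libraries. The oncosphere effect minus the normal one was 0.06 for NDRG1 (95% interval -1.56 to 1.67, limma adjusted p = 0.996), 0.92 for LRP1 (0.31 to 1.53, adjusted p = 0.613) and 0.61 for PAPSS2 (-0.29 to 1.50, adjusted p = 0.823). The limma interaction called 0.0% of genes, with 1294 genes at an unadjusted p under 0.05. The difference between the lines was not tested, since the A549 values chose the genes.

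**Figure D3:**
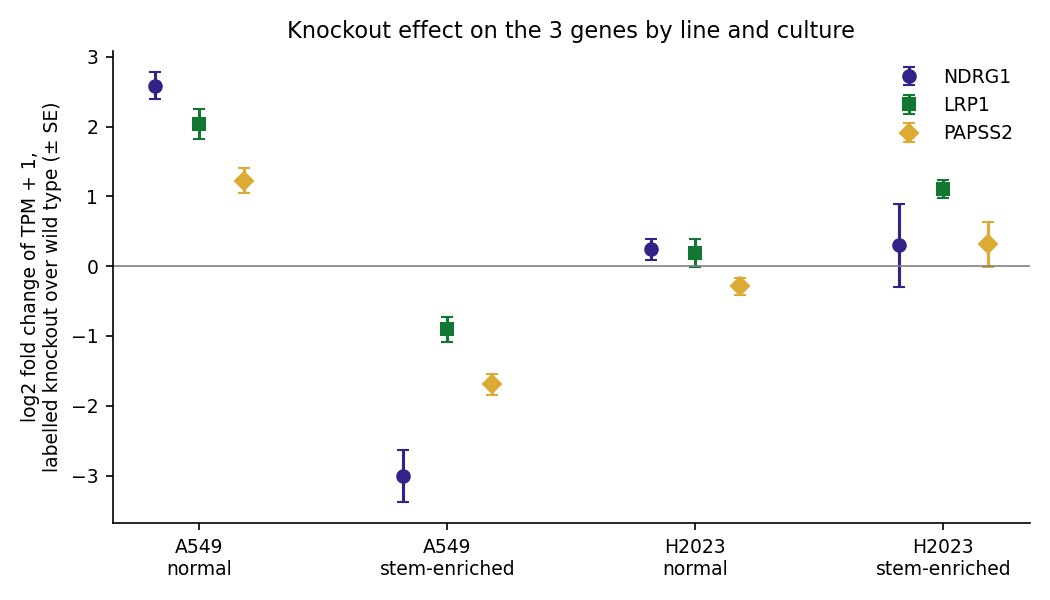
Log2 fold change of TPM + 1, libraries labelled knockout over wild type, for the 3 genes in each line and culture; points are limma estimates over 4 libraries and bars are 1 standard error. The A549 values run from 1.22 to 2.59 in normal and from -3.01 to -0.90 in oncosphere culture, while the H2023 values run from -0.29 to 1.11.

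LRP1 and PAPSS2 differed between the cultures in H2023 under the knockout label, where culture type and time change together. LRP1 rose in those libraries from 26.1 and 18.76 TPM in normal to 56.59 and 54.32 TPM in oncosphere culture (log2 difference 1.29, SE 0.18, limma adjusted p = 0.00411). PAPSS2 rose from 22.03 and 19.33 to 32.81 and 48.48 TPM (0.92, SE 0.26, adjusted p = 0.0452). NDRG1 differed by -0.01 (interval -1.15 to 1.13, adjusted p = 1.0). Limma called 26.9% of all genes in this contrast, so 2 of 3 is a count out of few. The PAPSS2 call was lost without replicate 1 or 2 of the normal group or replicate 2 of the oncosphere group, with log2 differences of 1.01, 0.83 and 0.64.

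In wild-type H2023, where limma called 21.4% of genes between cultures, 0 of the 3 genes passed. The log2 differences were -0.07 for NDRG1 (interval -1.21 to 1.08, adjusted p = 0.943), 0.37 for LRP1 (-0.07 to 0.80, adjusted p = 0.195) and 0.31 for PAPSS2 (-0.32 to 0.95, adjusted p = 0.438). Mean levels were 1.3-fold and 1.29-fold higher in oncosphere culture for LRP1 and PAPSS2, where wild-type A549 had 6.58-fold and 7.42-fold. The median gene moved by -0.18 and -0.12 between cultures in the wild-type and knockout-labelled libraries. Mitochondrially encoded genes took 10.3% to 12.6% of TPM in H2023 normal culture and 23.8% to 25.6% in oncosphere culture. Relative to the median gene the rises in the knockout-labelled libraries were 1.40 for LRP1 and 1.04 for PAPSS2, and the wild-type differences were 0.55 and 0.50. With mitochondrial genes left out of TPM the wild-type differences were 0.60 and 0.55, and neither passed the threshold (adjusted p = 0.0754 and 0.226).

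The order of the 8 groups differed between the genes. For NDRG1 the oncosphere A549 libraries labelled knockout were lowest and normal-culture A549 wild type next, each apart from its neighbours, and the other 6 groups overlapped with theirs from 56.9 to 141.2 TPM on average. For LRP1 normal-culture A549 wild type was lowest (mean 3.73 TPM) and apart from the next group, and oncosphere H2023 under the knockout label was highest (55.45 TPM) and apart from the rest. For PAPSS2 normal-culture A549 wild type was again lowest (8.865 TPM) and oncosphere A549 wild type was highest and apart (65.8 TPM). Normal-culture A549 wild type was thus the low group in LRP1 and PAPSS2. Normal-culture H2023 wild type had 5.2-fold more LRP1 and 2.88-fold more PAPSS2.

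Across the 8 group means of log2(TPM + 1), LRP1 and PAPSS2 correlated with r = 0.813, and NDRG1 with r = 0.571 to LRP1 and 0.605 to PAPSS2. The groups share lines and cultures, and these values are descriptions. The A549 groups are among them, and the members were chosen for a shared order of the genotypes there. Positive correlations between the members were therefore partly set by the choice and add no support. The lists of similar genes below rest in part on the same A549 patterns. Among 14022 genes, the most similar to LRP1 were TMUB2 (r = 0.983), PPP1R3B (0.978), ABHD14A (0.956), MAPK3 (0.946) and P2RY11 (0.945). PPP1R3B, a glycogen-targeting subunit of protein phosphatase 1, had means of 1.69 TPM in normal-culture A549 wild type, 5.06 TPM under the knockout label and 10.2 TPM in oncosphere H2023 under that label. The most similar to PAPSS2 were CCDC183 (0.959), ODF3B (0.957), SCARB1 (0.954), PTPRH (0.952) and ZKSCAN1 (0.942). SCARB1, the HDL receptor, had 116 and 135 TPM in the A549 normal groups and 197 and 128 TPM in the oncosphere ones. The most similar to NDRG1 were SPEF2 (0.878), VLDLR (0.855), DGCR5 (0.82), ZNF846 (0.819) and SMG1P7 (0.802).

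The genes around the 3 members were followed with 8 lists, of which 108 genes other than the members had values. Limma called 10.8% of all genes in A549 normal culture and 13.2% in oncosphere culture. Of the 108 list genes, 15 rose and 5 fell in normal culture, and 23 rose and 10 fell in oncosphere culture. With any 1 of the 4 libraries left out, so that an arm held a single library, limma called 0 of the 108 in normal culture and 0 to 2 in oncosphere culture, the 2 without knockout-labelled replicate 1. With all libraries kept, 5 of the 20 calls and 5 of the 33 were lost under at least 1 other limma setting, and all but 1 (SLC26A1) were called in the authors' deposited tables. Of the 108, 3 were called in the members' order by limma (CA9, EGLN3 and VLDLR), and 7 in the authors' deposited tables (also BNIP3, SLC2A1, PGK1 and DDIT4).

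Oxygen sensing and hypoxia target genes, the pathway in which NDRG1 is best known, gave 6 of those 7. Of 22 genes 8 rose and 0 fell in A549 normal culture, with a median log2 fold change of 0.75 against -0.03 for all genes. In oncosphere culture 2 rose and 3 fell, with a median of -0.20 against 0.03. EGLN3, an oxygen-sensing prolyl hydroxylase that is itself induced by hypoxia, stood in normal culture at 7.06 and 7.55 TPM (wild type) and at 13.45 and 17.44 TPM (knockout label) (adjusted p = 0.0347) while oncosphere culture had 26.15 and 34.78 against 7.38 and 9.61 TPM (adjusted p = 0.00938). CA9 had adjusted p-values of 0.0133 and 0.00399. The glycolytic regulator PFKFB4 rose in normal culture (2.05, adjusted p = 0.00717), and so did DDIT4, an inhibitor of mTOR signalling (1.50, adjusted p = 0.0288), while both were not past the threshold in oncosphere culture (-0.27 and -0.56, adjusted p = 0.532 and 0.12). The third gene that fell there was PGK1, a glycolytic enzyme. The 2 that rose were the transcription factor subunits HIF1A, from 244.3 and 224.96 to 499.13 and 515.72 TPM, and EPAS1. The calls of PGK1 and EPAS1 were lost without mitochondrial genes in TPM, and that of EPAS1 also when centred on the median gene. Under the other limma settings their adjusted p was at most 0.0523 and 0.0645.

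The hypoxia targets were summarised in each library to set them beside NDRG1. The mean log2(TPM + 1) of the 15 targets was 4.83 and 5.01 in normal-culture A549 wild type and 5.94 and 6.15 in the knockout-labelled libraries. In oncosphere culture it was 5.64 and 5.90 against 5.16 and 4.92. The order of the genotypes was that of NDRG1 in both cultures. The oncosphere A549 libraries labelled knockout, with the least NDRG1, overlapped normal-culture A549 wild type in this mean. In summed TPM of the targets they were lower, at 3495 and 3409 against 3892 and 4025. For H2023 the mean log2(TPM + 1) of the targets lay between 4.61 and 5.04 in all 8 libraries. In oncosphere wild type it was 5.04 in replicate 1, with 92.61 TPM of NDRG1 and 9.33 TPM of CA9. In replicate 2 it was 4.62, with 31.67 and 0.56 TPM. In H2023 normal culture this mean was 4.71 and 4.997 in wild type, with 54.39 and 59.41 TPM of NDRG1. Under the knockout label it was 4.75 and 4.61, with 76.59 and 59.33 TPM. The genotypes overlapped there in both measures. In every group of both lines the replicate with more NDRG1 had the higher target mean. Limma called 0 of the 22 genes in either H2023 culture, with 2 and 3 at an unadjusted p under 0.05, and the authors' deposited tables called 2 and 3. The part of this pathway in the NDRG1 result was not tested.

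**Figure D4:**
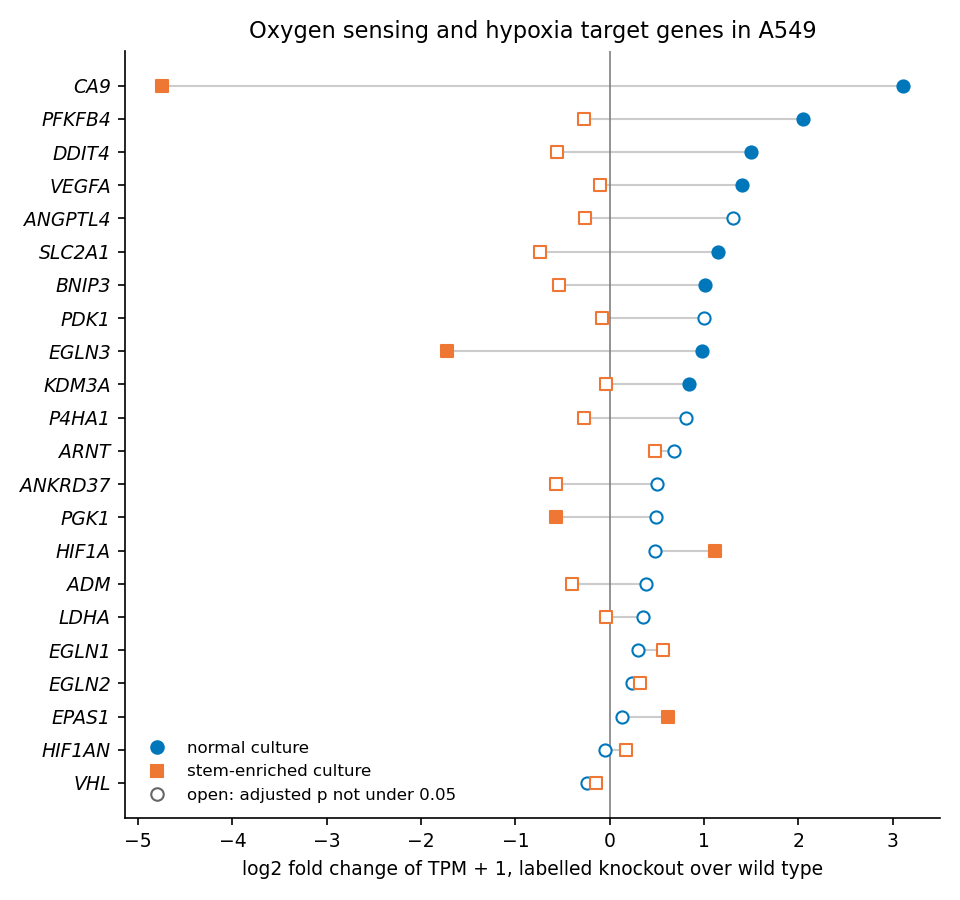
Limma log2 fold change of TPM + 1, libraries labelled knockout over wild type, for 22 oxygen sensing and hypoxia target genes in A549 normal (blue circles) and oncosphere culture (orange squares); filled symbols have an adjusted p under 0.05. CA9 (3.11 and -4.74) and EGLN3 (0.98 and -1.73) are filled on both sides of 0, and HIF1A (0.48 and 1.11) lies above 0 in both cultures.

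Among the LDL receptor family, the relatives of LRP1, VLDLR alone was called in the same order as LRP1. VLDLR, a receptor for apolipoprotein E and reelin, stood in A549 normal culture at 10.95 and 10.7 TPM (wild type) and at 17.42 and 16.96 TPM (knockout label) (adjusted p = 0.0451, at most 0.0583 under the other limma settings and lost under 2 of 6) while oncosphere culture had 31.48 and 22.67 against 10.19 and 7.94 TPM (adjusted p = 0.0152). Of 12 relatives with values, 1 rose and 1 fell in normal culture and 2 rose and 3 fell in oncosphere culture, with medians of 0.27 and -0.03. SORL1, a sorting receptor, fell in normal culture from 7.8 and 6.23 to 1.6 and 1.02 TPM (adjusted p = 0.0164). LRP5, a Wnt co-receptor, fell in oncosphere culture from 104.28 and 110.6 to 67.83 and 61.41 TPM (adjusted p = 0.0145), together with LRP10. LRP1B, the closest relative of LRP1, rose there from 0.19 and 0.1 to 2.23 and 2.68 TPM (adjusted p = 0.00623).

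Among the proteins that fold, cut and couple LRP1 the share of calls was near that of all genes. Of 14 genes 1 rose in A549 normal culture, FURIN, the protease that cleaves the LRP1 precursor (16.24 and 21.74 to 46.27 and 32.6 TPM, adjusted p = 0.0492, lost with pseudocount 0.1 or the replicate block), and 2 rose in oncosphere culture, the adaptors SHC1 and MAPK8IP1 (adjusted p = 0.0222 and 0.0411). LRPAP1, the chaperone of LRP1, had log2 differences of -0.11 and 0.02 (adjusted p = 0.567 and 0.911) at 100.88 to 191.83 TPM in A549. Of 18 LRP1 ligands, 2 rose and 1 fell in normal culture, and 8 rose and 1 fell in oncosphere culture, with medians of 0.21 and 0.57. MMP2, a metalloproteinase, rose in both (4.69 and 5.47, adjusted p = 0.00151 and 0.00194). SERPINE2, a protease inhibitor, rose in oncosphere culture (1.51, adjusted p = 0.0124), and CCN2, a matricellular protein, fell there from 24.33 and 23.11 to 5.91 and 5.25 TPM (adjusted p = 0.00382).

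None of the other genes of sulfate handling was called in the order of PAPSS2. Of 9 genes of sulfate uptake and PAPS supply, 1 rose in A549 normal culture and 2 in oncosphere culture, and 0 fell. SLC26A2, the main sulfate importer, went from 12.22 and 12.9 to 20.32 and 19.99 TPM in normal culture (adjusted p = 0.0381) and from 4.67 and 5.34 to 20.06 and 15.21 TPM in oncosphere culture (adjusted p = 0.00981), higher under the knockout label in both. The other was SLC26A1, a sulfate and oxalate exchanger (0.79, adjusted p = 0.049), whose call was lost under 4 of 6 other limma settings and is absent from the authors' deposited table (adjusted p = 0.818). Of 6 cytosolic sulfotransferases, limma called 0 in normal culture (2 at an unadjusted p under 0.05, and 1 in the authors' deposited table), and SULT1A1 rose in oncosphere culture (1.83, adjusted p = 0.0398), where wild type had 66.22 and 28.2 TPM. Its near-identical paralogs make its level uncertain.

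Of 24 Golgi sulfotransferases, most of which sulfate glycans or glycolipids, 2 rose and 3 fell in A549 normal culture, and 5 rose and 3 fell in oncosphere culture. GAL3ST1, the sulfatide-making cerebroside sulfotransferase, fell in both, from 47.91 and 31.35 to 8.58 and 11.17 TPM and from 93.07 and 95.94 to 15.8 and 11.49 TPM (adjusted p = 0.0163 and 0.00264). HS3ST1, which modifies heparan sulfate, also fell in both (-0.81 and -1.72, adjusted p = 0.0488 and 0.0192), the former lost under 2 of 5 other limma settings. CHST15, a chondroitin sulfotransferase, rose in oncosphere culture from 20.51 and 15.18 to 94.8 and 83.67 TPM (adjusted p = 0.00358), and CHST1, which sulfates keratan, rose in both cultures at levels of at most 4.33 TPM (adjusted p = 0.0303 and 0.00435). In oncosphere A549 libraries labelled knockout, PAPSS2 was thus 3.36-fold lower than in wild type beside a higher SLC26A2 and CHST15 and a lower GAL3ST1.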

How the data were processed

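RNA of 16 libraries was sequenced from stranded mRNA libraries. HISAT2, StringTie and GRCh38 are named in the submitters' processing notes, and versions and the annotation are not given in the sources used here. The authors deposited 4 tables of 4 libraries each, with TPM per library. Per the file headers these also hold the mean normalized count (a signal averaged over 4 libraries), the log2 fold change with its standard error, and the p-value with its adjusted p-value. Of 18361 rows a table, 18227 genes remained after identifiers repeated with the same values were taken once. The table names gave the line of each library.

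Here log2(TPM + 1) of all genes was fitted with limma 3.58.1 under R 4.3.3, using its variance trend. Tests were two-sided, and Benjamini-Hochberg adjusted p-values under 0.05 were called. Knockout effects used 4 libraries, and culture contrasts and interactions the 8 of a line. Such fold changes understate changes of low genes. No gene was filtered out. The fit was tested on simulated data. Intervals are 95% intervals of the fit.

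The members and lists were chosen with earlier results of these data known. Genes named are the members, up to 4 called genes with the largest change per list and the members' closest relatives, the 5 most similar genes per member (mean of at least 1 TPM), and the 5 most reversed genes. HIF1A, EPAS1, PGK1, LRP10, BNIP3, SLC2A1, C3 and PLAU were named after their values were seen, because they complete small counts. Some list genes are counted but not reported singly here. Alternatives were another pseudocount, a filter on low values, 8 libraries, a replicate block, leaving out each library, TPM without mitochondrial genes, centring, and the authors' fold changes. The count of list calls lost under these was added after seeing the data.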

Additional observations from a re-analysis of the deposited data

Results flagged for a closer look

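In A549 all libraries labelled knockout lay above wild type in normal culture and below it in oncosphere culture for each of the 3 genes. The effect in oncosphere minus normal culture was -5.59 for NDRG1, -2.94 for LRP1 and -2.92 for PAPSS2 on the log2 scale. This is the pattern the genes were chosen for, and it was not tested. The lines also had values of opposite sign, of which 2 cases were flagged, and these differences were not tested either. Not flagged were NDRG1 in oncosphere culture (-3.005 in A549 and 0.297 in H2023) and PAPSS2 in oncosphere culture (-1.695 and 0.314). For both of these the H2023 genotypes overlapped. LRP1 in oncosphere culture was lower under the knockout label in A549 and higher in H2023, an H2023 minus A549 difference of 2.01. PAPSS2 in normal culture was higher under the label in both A549 libraries and lower in both H2023 libraries, a difference of -1.51, and its H2023 value of -0.29 did not pass the test (limma adjusted p = 0.305).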

How the results depend on the processing

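Every A549 effect on the 3 genes kept its direction under all alternatives, as did LRP1 in oncosphere H2023 and both culture rises in H2023 libraries labelled knockout. For A549 this was largely set by the choice of the genes, which was made on these same values, and adds no support. The alternatives for the A549 culture contrasts were added after seeing the data. Pseudocount 0.1 gave LRP1 2.70 between wild-type A549 cultures and -3.23 for its A549 culture difference. The authors' fold changes gave NDRG1 differences between cultures of -6.10 in A549 and -0.41 in H2023. Leaving out 1 library gave A549 culture differences of -6.17 to -5.01 for NDRG1 and -3.12 to -2.72 for PAPSS2.

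In H2023, knockout effects with 1 library left out ran from -0.041 to 0.415 for LRP1 in normal culture, and in oncosphere culture from -0.46 to 1.06 for NDRG1 and -0.022 to 0.65 for PAPSS2. The authors' deposited tables gave -0.12 for NDRG1 and 1.00 for LRP1 in the latter, and the 8-library fit gave LRP1 1.11, past the threshold. Differences between cultures then ran from -0.82 to 0.69 (NDRG1) and -0.023 to 0.65 (PAPSS2) in wild type, and from -0.31 to 0.29 (NDRG1) and 0.64 to 1.19 (PAPSS2) under the knockout label. The interaction for NDRG1 ran from -0.70 to 0.81. Without mitochondrial genes NDRG1 differed between H2023 cultures by 0.17 in wild type and 0.21 under the knockout label, and by 0.12 and 0.11 when centred. Those signs hold no direction, and the cause was not tested.

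Of the 108 list genes, 20 were called in A549 normal and 33 in oncosphere culture. The authors' deposited tables called 43 and 47, and leaving out 1 library gave 0 to 0 and 0 to 2, with fewer samples in the fit. The labels link the replicates of different groups by number alone. Same-numbered deviations correlated with 0.077 and 0.124 in A549 and 0.037 and 0.476 in H2023 (normal, then oncosphere). In oncosphere H2023 same-numbered libraries thus deviated partly together, and the cause was not tested. A fit with the replicate block left the LRP1 effect in oncosphere H2023 at 1.11 (adjusted p = 0.151), changed no call on the 3 genes, and called 26 and 37 list genes. Depth is unknown, so the smallest detectable level cannot be given.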

Other observations

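A pair of list genes were called in the order opposite to the 3 genes in the authors' deposited tables, lower under the knockout label in A549 normal culture and higher in oncosphere culture. C3, the central complement protein and a ligand of LRP1, went in normal culture from 136.84 and 137.91 TPM down to 46.07 and 68.83 TPM, and from 410.19 and 269.12 up to 644.03 and 742.95 TPM in oncosphere culture, past the limma threshold in both (adjusted p = 0.0234 and 0.0372). PLAU, the urokinase, had 186.12 and 114.54 against 72.53 and 47.23 TPM and then 71.21 and 71.94 against 107.69 and 135.41 TPM (adjusted p = 0.0537 and 0.0261, the latter 0.082 when fitted over 8 libraries).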
